A study of Caenorhabditis elegans with 12 samples.

Results

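The respiratory chain and ATP synthase of the mitochondrion were followed in whole Caenorhabditis elegans that lack members of the miR-58 microRNA family. The 35 genes chosen by name encode subunits of complexes I to IV, cytochrome c and the ATP synthase, and 33 of them are listed under these names among 16309 genes. They comprise 11 genes of complex I, 5 of complex II, 7 of complex III with cytochrome c, 2 of complex IV and 8 of the ATP synthase. The other 2, nuo-6 and atp-1, are listed under their sequence names W01A8.4 and H28O16.1, were matched through the annotation, and are given apart from the counts.

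The mutants were mir-58(n4640) on chromosome IV (strain MT15024, called mir-58 here), nDf53 on III with mir-58(n4640) (strain MT18409, the double mutant, which lacks mir-80 and mir-58) and nDf53 with mir-58(n4640) and nDf54 on X (strain MT15563, the quadruple mutant, which in addition lacks mir-81 and mir-82). N2 Bristol was the wild type, and each of the 4 genotypes has 3 samples of whole animals at the late L4 stage. All were fed light-labelled bacteria for 2 generations. Animals of mir-58 and wild type were collected 33 h after transfer, the double mutant 6 h and the quadruple mutant 15 h later than wild type because these strains develop slowly, so genotype and time of collection cannot be told apart in the multiple mutants. Each mutant is represented by 1 strain. The values are the authors' log2 fold changes over wild type and their adjusted p-values, with no value per sample, so neither sequencing depth nor replicate spread is known and no error can be set beside a fold change. A gene is called higher or lower where the authors' adjusted p is under 0.05.

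Complex I takes electrons from NADH and complex II from succinate, and both pass them through ubiquinone to complex III. Cytochrome c carries them on to complex IV, which reduces oxygen, and the proton gradient built by complexes I, III and IV drives the ATP synthase. In C. elegans, certain mutations of isp-1 or nuo-6, and knockdown of cco-1 or atp-3, slow growth and lengthen life. By contrast, mutation of mev-1 or gas-1 makes the animals sensitive to oxygen.

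Transcripts of all 5 complexes were lower in the quadruple mutant, each with at least 1 called gene. Of the 33 genes, 20 fell and none rose, against a background of 9.82% of all listed genes called lower and 14.2% called higher. The median log2 fold change was -0.69, which is 62.0% of the wild-type level, where the median of all listed genes was 0.11. In the double mutant 5 members fell and 1 rose, against 5.86% lower and 10.5% higher calls among all genes, and the median was -0.47 (72.2% of wild type; all genes 0.08). In mir-58 alone 3 members fell and none rose, against 5.79% lower and 1.65% higher calls, with a median of -0.19 (87.7% of wild type; all genes -0.06). At an adjusted p under 0.01, 8 members were lower in the quadruple mutant (6.32% of all genes) and 1 in the double (3.49%), and under 0.1, 8 were lower in the double mutant (7.66%). In whole animals, fewer cells rich in mitochondria and less of each transcript per cell cannot be told apart.

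The members' fold changes lay close to one another. In the quadruple mutant the quartiles of the members were -0.83 and -0.57, a width of 0.26 on the log2 scale, against a width of 1.05 for all listed genes. In the double mutant the widths were 0.14 for the members and 0.84 for all genes, and in mir-58 they were 0.11 and 0.59. No expression levels were available, so all listed genes could not be matched to the members for expression level. Narrow quartiles were not particular to the members. In the quadruple mutant the widths were 0.195 for other complex I subunits, 0.213 for other ATP synthase subunits and 0.27 for the TCA cycle list. Assembly factors (0.372) and ubiquinone synthesis (0.57) had wider ones. Of all listed genes, 13.9% had a fold change below the members' median in the quadruple mutant, 17.6% in the double mutant and 37.4% in mir-58. The sign of the fold change was negative for 31 members of mir-58, 29 of the double and 31 of the quadruple mutant, and for 9026, 7239 and 7153 of all 16309 listed genes in the same order.

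**Figure D1:**
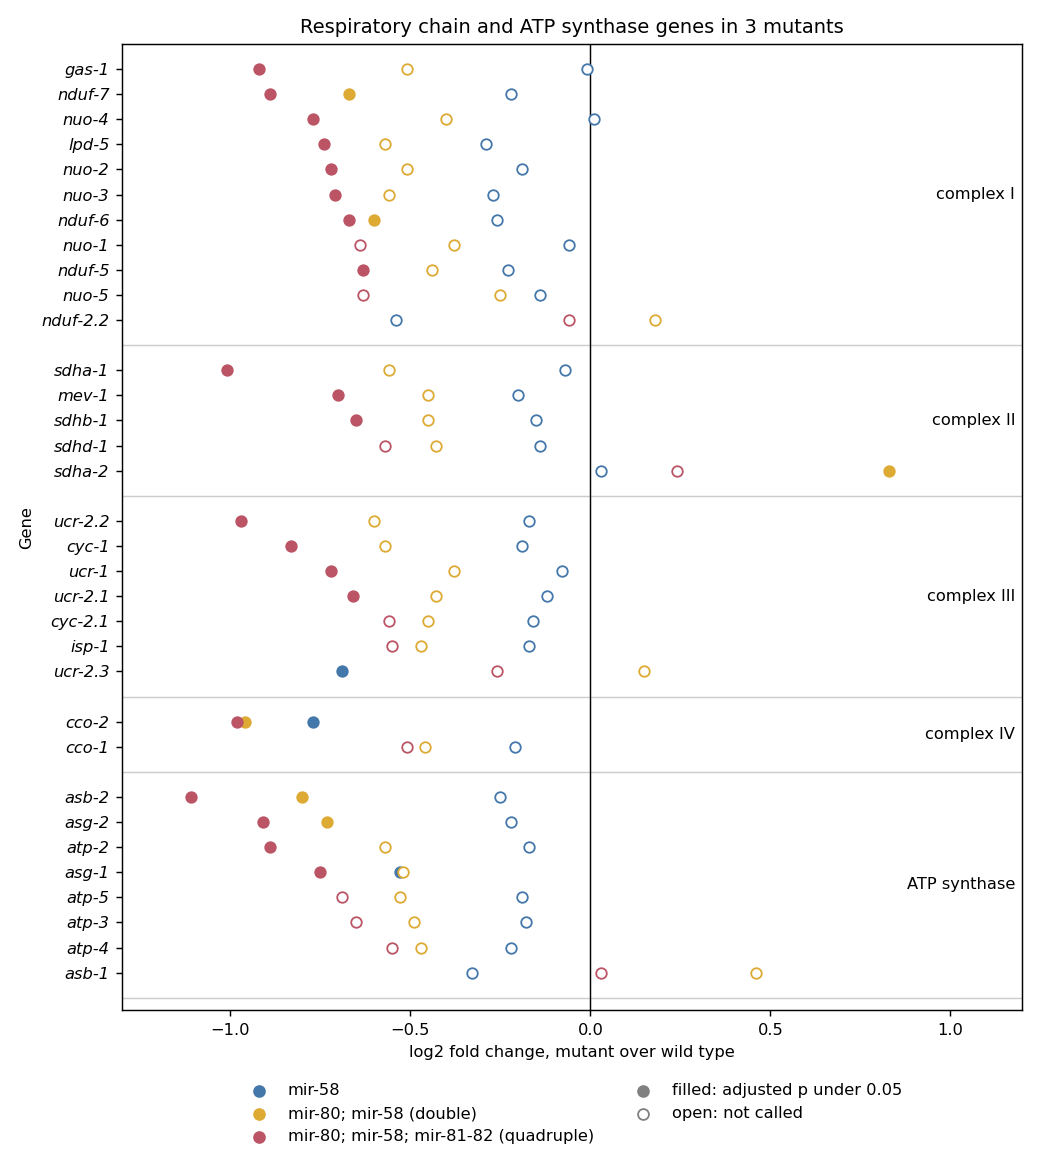
Log2 fold change over wild type (x axis) of the 33 genes listed by name (y axis), grouped by complex and ordered within it by the quadruple mutant; each point is 1 mutant, filled where the authors' adjusted p is under 0.05. Most rows run leftwards in the order mir-58, double, quadruple, while nduf-2.2, sdha-2, ucr-2.3 and asb-1 have their double mutant point right of 0.

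**Figure D2:**
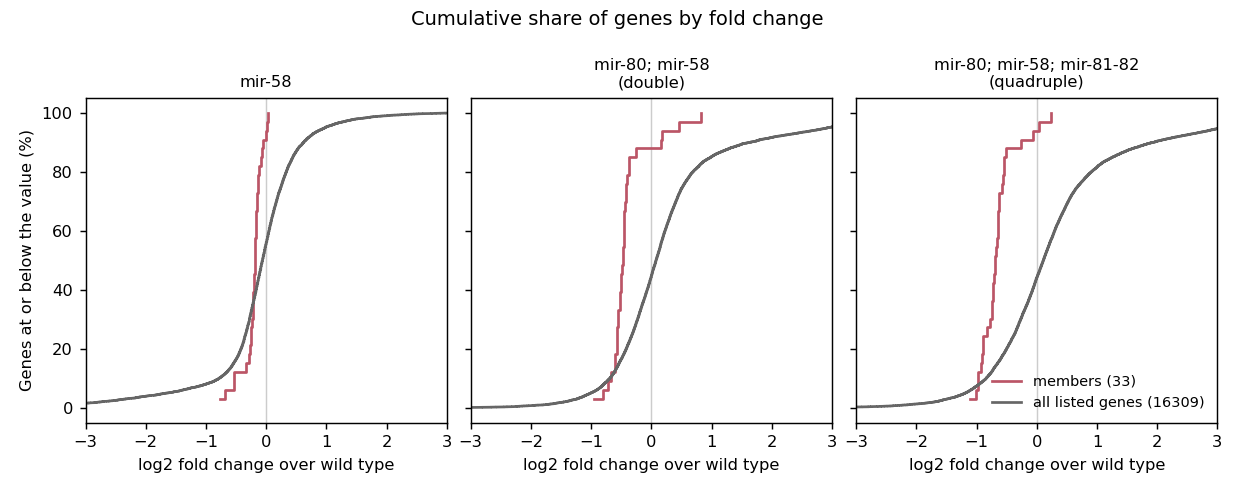
Percentage of genes (y axis) at or below each log2 fold change over wild type (x axis, shown from -3 to 3) for the 33 members and for all 16309 listed genes, 1 panel per mutant. The members' curve is steep in each panel, with its middle at -0.19, -0.47 and -0.69.

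Complex I, the NADH dehydrogenase, had 8 of 11 listed subunits lower in the quadruple mutant, 2 in the double mutant and none in mir-58. Over all listed genes 9.82%, 5.86% and 5.79% were called lower in the same order. Its medians were -0.22 for mir-58, -0.51 for the double and -0.71 for the quadruple mutant. The largest change was that of gas-1, the catalytic core subunit near the quinone site, which the authors' deposited table places at -0.01 in mir-58, -0.51 in the double mutant and -0.92 in the quadruple mutant (adjusted p = 1, 0.126 and 0.00136). That is 52.9% of the wild-type level in the quadruple mutant. The iron-sulfur subunit gene nduf-7 stood at -0.22, -0.67 and -0.89 according to the authors' deposited table in the same order, and fell in both multiple mutants (adjusted p = 0.0281 and 0.0023). The accessory subunit gene nduf-6 was likewise called in both multiple mutants, at -0.60 in the double (adjusted p = 0.0473) and -0.67 in the quadruple one (adjusted p = 0.0239), according to the authors' deposited table. No other complex I member was called in both.

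Another 5 complex I genes fell in the quadruple mutant alone, although none of these differences between mutants was tested. The accessory subunit gene nuo-4 was at 0.01, -0.40 and -0.77 in mir-58, the double and the quadruple mutant according to the authors' deposited table (adjusted p = 0.00931 in the last). For lpd-5, whose human counterpart is mutated in Leigh syndrome, the authors' deposited table has -0.29, -0.57 and -0.74 (adjusted p = 0.0129). The core subunit gene nuo-2 read -0.19, -0.51 and -0.72 (adjusted p = 0.0181) and the accessory subunit gene nuo-3 -0.27, -0.56 and -0.71 (adjusted p = 0.0233) according to the authors' deposited table. The smallest called change of the quadruple mutant in this complex was that of nduf-5, an accessory subunit, at -0.23, -0.44 and -0.63 according to the authors' deposited table (adjusted p = 0.0381).

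A pair of large catalytic subunits had fold changes of the same size without a call. The NADH-binding flavoprotein gene nuo-1 was at -0.06, -0.38 and -0.64 according to the authors' deposited table (adjusted p = 0.0809 in the quadruple mutant). The iron-sulfur subunit gene nuo-5 was at -0.14, -0.25 and -0.63, also uncalled, according to the authors' deposited table (adjusted p = 0.0783). A call in this range of fold change thus did not follow the size of the change alone, as nduf-5 and nuo-5 shared the value -0.63 and only nduf-5 passed. The remaining listed gene, nduf-2.2, a second copy of the subunit that gas-1 encodes, stood at -0.54 in mir-58 (adjusted p = 0.0567), 0.18 in the double mutant and -0.06 in the quadruple mutant according to the authors' deposited table. By its sequence name, nuo-6, an accessory subunit, had -0.27, -0.57 and -0.80 according to the authors' deposited table and was lower in the quadruple mutant (adjusted p = 0.00597).

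Complex II, the succinate dehydrogenase that also serves the TCA cycle, had 3 of 5 genes lower in the quadruple mutant and 1 higher in the double mutant. Over all listed genes 9.82% were called lower in the quadruple mutant and 10.5% higher in the double mutant. The flavoprotein gene sdha-1 was at -0.07, -0.56 and -1.01 in mir-58, the double and the quadruple mutant according to the authors' deposited table (adjusted p = 7.33e-04 in the last), or 49.7% of wild type. The membrane anchor gene mev-1 had -0.20, -0.45 and -0.70 (adjusted p = 0.0218), and the iron-sulfur subunit gene sdhb-1 had -0.15, -0.45 and -0.65 (adjusted p = 0.0428), both according to the authors' deposited table. The other anchor gene, sdhd-1, ended at -0.57 without a call according to the authors' deposited table (adjusted p = 0.0696). The second flavoprotein gene sdha-2 went the other way and was the member that rose, at 0.83 in the double mutant according to the authors' deposited table (adjusted p = 0.00524), with 0.03 in mir-58 and 0.24 in the quadruple mutant, where it was not called.

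Complex III, the cytochrome bc complex, had 4 of 7 genes lower in the quadruple mutant when cytochrome c is counted with it, none in the double mutant and 1 in mir-58. Over all listed genes the shares called lower were 9.82%, 5.86% and 5.79% in that order. The core protein gene ucr-2.2 was at -0.17, -0.60 and -0.97 in mir-58, the double and the quadruple mutant according to the authors' deposited table (adjusted p = 7.2e-04 in the last). The haem subunit gene cyc-1, cytochrome c1, had -0.19, -0.57 and -0.83 according to the authors' deposited table (adjusted p = 0.0147). The core protein genes ucr-1 and ucr-2.1 fell to -0.72 and -0.66 in the quadruple mutant according to the authors' deposited table (adjusted p = 0.017 and 0.0363). No call was made for isp-1, the Rieske iron-sulfur protein, at -0.17, -0.47 and -0.55 according to the authors' deposited table, or for cyc-2.1, the mobile cytochrome c, at -0.16, -0.45 and -0.56. Another gene of the same core protein family, ucr-2.3, fell in mir-58 to -0.69 according to the authors' deposited table (adjusted p = 0.0044), against uncalled values of 0.15 for the double and -0.26 for the quadruple mutant.

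Complex IV, the cytochrome c oxidase, is represented by cco-1 and cco-2, both nuclear-encoded subunits. The gene cco-2 was the one member called lower in each of the 3 mutants, at -0.77, -0.96 and -0.98 in mir-58, the double and the quadruple mutant according to the authors' deposited table (adjusted p = 0.00748, 0.00948 and 0.00627). Its levels were 58.6%, 51.4% and 50.7% of wild type. By contrast cco-1 stood at -0.21, -0.46 and -0.51 according to the authors' deposited table without a call (adjusted p = 0.155 in the quadruple mutant). The step between the double and the quadruple mutant was -0.02 for cco-2 and -0.05 for cco-1, the smallest among the 33 members.

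The ATP synthase had 4 of 8 listed genes lower in the quadruple mutant, 2 in the double mutant and 1 in mir-58. Beside these counts, 9.82%, 5.86% and 5.79% of all listed genes were called lower in the same order. The lowest value of any member was that of asb-2, subunit b of the stalk that holds the catalytic head, at -0.25, -0.80 and -1.11 in mir-58, the double and the quadruple mutant according to the authors' deposited table (adjusted p = 0.0253 and 0.00117 for the double and the quadruple mutant), which leaves 46.3% of the wild-type level in the last. The subunit g gene asg-2 was at -0.22, -0.73 and -0.91 according to the authors' deposited table and fell in the double and the quadruple mutant (adjusted p = 0.0137 and 0.00193). Its paralogue asg-1 fell in mir-58 (-0.53, adjusted p = 0.0356) and in the quadruple mutant (-0.75, adjusted p = 0.011), with -0.52 and no call in the double mutant, according to the authors' deposited table. The catalytic beta subunit gene atp-2 stood at -0.17, -0.57 and -0.89 according to the authors' deposited table and was called in the quadruple mutant (adjusted p = 0.0268).

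The alpha subunit gene atp-1, matched by its sequence name, had nearly the same values as atp-2, at -0.29, -0.61 and -0.90 according to the authors' deposited table, but was not called (adjusted p = 0.0747 in the quadruple mutant). Also uncalled in the quadruple mutant were the stalk subunit genes atp-3 (-0.65, adjusted p = 0.0821), atp-4 (-0.55, adjusted p = 0.0811) and atp-5 (-0.69, adjusted p = 0.0746) according to the authors' deposited table. The germline form of subunit b, asb-1, was at -0.33, 0.46 and 0.03 in mir-58, the double and the quadruple mutant according to the authors' deposited table, with no call.

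Several subunits are encoded by more than one gene, and some of these copies differed in their values. ASB-1 is known as the germline form and ASB-2 as the somatic form of subunit b. The difference asb-1 minus asb-2 was, on the log2 scale, -0.08 for mir-58, 1.26 for the double and 1.14 for the quadruple mutant. For the complex II flavoprotein, sdha-1 minus sdha-2 was -0.10, -1.39 and -1.25 in the same order. For the complex I core subunit, gas-1 minus nduf-2.2 was 0.53, -0.69 and -0.86, and for the complex III core protein, ucr-2.2 minus ucr-2.3 was 0.52, -0.75 and -0.71. In each of these pairs one copy was called lower in the quadruple mutant and the other copy was uncalled there, but the difference between copies has no test. Other copies lay closer together, as ucr-2.1 minus ucr-2.2 was 0.31 and asg-1 minus asg-2 was 0.16 in the quadruple mutant. Reads of similar copies may be divided by the counting, which the sources used here do not describe, so values of these genes are less certain than the rest.

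The widest split was between the cytochrome c genes. A second gene, cyc-2.2, which is no member, was called lower in mir-58 and higher in both multiple mutants, at -2.92, 2.93 and 3.10 according to the authors' deposited table (adjusted p = 3.78e-07, 1.4e-12 and 7.23e-15), while cyc-2.1 stayed between -0.16 and -0.56. An adenine nucleotide carrier gene, ant-1.3, had a like pattern at -2.52, 2.53 and 2.39 according to the authors' deposited table (adjusted p = 1.7e-17, 1.85e-19 and 6.66e-17). Sperm markers moved along the same course, as 8 of 11 listed fell in mir-58 (median -3.63) and 11 of 11 rose in both multiple mutants (medians 3.46 in the double and 3.32 in the quadruple one). Among them were spch-1 (C04G2.8) and ssq-1, at 4.02 and 4.25 in the quadruple mutant according to the authors' deposited table. Of 12 markers of the proliferating and meiotic germ line, 7 fell in mir-58 (median -0.56), against 5.79% of all listed genes. In each multiple mutant 2 rose (medians 0.405 in the double and 0.27 in the quadruple one). Of all listed genes 10.5% and 14.2% rose there. The 2 markers that rose were gld-1 and mex-5, at 0.97 and 0.86 in the double mutant, according to the authors' deposited table. In the quadruple mutant 9 of the 12 lay above 0 and 3 below. The part of germline content in the values of asb-1, nduf-2.2, sdha-2, ucr-2.3 and cyc-2.2 was not tested. This holds for mir-58 too, although it was collected at the same time after transfer as wild type.

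**Figure D3:**
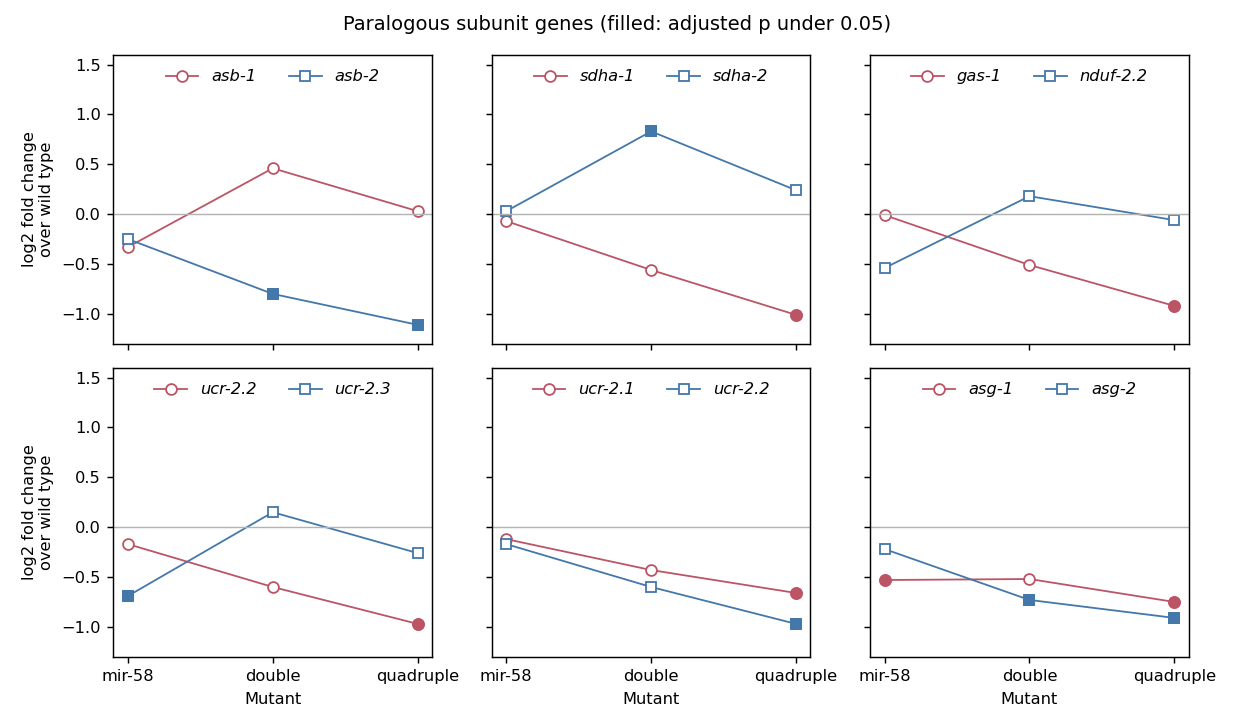
Log2 fold change over wild type (y axis) in mir-58, the double and the quadruple mutant (x axis) for 6 pairs of paralogous members; circles are the first and squares the second gene of a pair, filled where the authors' adjusted p is under 0.05, and lines only join the values of 1 gene. In the pairs of asb-1 and sdha-2 the copies lie together in mir-58 and apart in the multiple mutants, in those of nduf-2.2 and ucr-2.3 their order in mir-58 is turned round in the multiple mutants, and ucr-2.1 with ucr-2.2 and asg-1 with asg-2 lie at most 0.31 apart in each mutant.

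Without all members of the paralogue pairs, which were chosen with earlier results of these data known, 20 genes remain. Left out were also ucr-1 and cyc-2.1. The removed genes include the highest members of the quadruple mutant, sdha-2 (0.24), asb-1 (0.03), nduf-2.2 (-0.06) and ucr-2.3 (-0.26). The narrower spread of the rest thus follows in part from this choice. In the quadruple mutant the 20 genes lay between -0.98 and -0.51 with a median of -0.68 and a distance of 0.118 between the quartiles, and 12 of the 20 fell. In the double mutant the 20 lay between -0.96 and -0.25, with 3 called lower. In mir-58 they lay between -0.77 and 0.01, with cco-2 as the single call.

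The chromosome of 31 members could be looked up, and 6 lie on X. This split was chosen after the values were seen. The X-linked members gas-1, sdha-1, ucr-2.1, ucr-2.2, asb-2 and asg-2 had a median of -0.945 in the quadruple mutant, with all 6 called lower, against a median of -0.65 and 13 of 25 called for the autosomal members. All 6 belong to the paralogue pairs, and their uncalled copies nduf-2.2, sdha-2, ucr-2.3 and asb-1 are among the autosomal members. The split by chromosome thus overlaps with that between paralogous copies, and the 2 cannot be told apart here. In the double mutant the medians were -0.58 and -0.45, and in mir-58 -0.145 and -0.19. Over all listed genes the X-linked median was -0.05 and the autosomal median 0.14 in the quadruple mutant, with 13.8% and 9.34% called lower. In the double mutant they were -0.09 and 0.10, and in mir-58 0.02 and -0.08.

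Differences between mutants were taken from the deposited fold changes and have no test. The common wild type cancels in them only if all comparisons used the same normalised wild-type values, which is not stated. All 33 members had a lower value in the quadruple than in the double mutant, with differences from -0.59 to -0.02 and a median of -0.23, whereas 49.8% of all listed genes had a lower value and the median difference was 0. In the double mutant 28 of 33 members had a lower value than in mir-58, with a median difference of -0.30, against 46.7% and 0.04 over all genes. The 5 with a higher value in the double mutant were nduf-2.2, sdha-2, ucr-2.3, asb-1 and asg-1. The largest steps down between the double and the quadruple mutant were -0.59 for sdha-2, -0.45 for sdha-1, -0.43 for asb-1 and -0.41 for both gas-1 and ucr-2.3.

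Most other subunit genes had lower values too, with 35 of 37 below 0 in the quadruple mutant. The shares of all listed genes called lower were 9.82% in the quadruple mutant, 5.86% in the double and 5.79% in mir-58. Of 20 further complex I subunit genes 16 fell in the quadruple mutant (median -0.80), 4 in the double (-0.545) and none in mir-58 (-0.235). Among them F37C12.3 was lowest by adjusted p, at -1.02 in the quadruple mutant according to the authors' deposited table (adjusted p = 2.51e-04), followed by D2030.4 at -0.96, T20H4.5 at -0.96 and Y54F10AM.5 at -0.91. Of 3 listed complex IV subunit genes, F29C4.2 (cox-6C) and F26E4.6 (cox-7C) fell to -0.84 and -0.77 in the quadruple mutant according to the authors' deposited table (adjusted p = 0.00625 and 0.0156), and W09C5.8 (cox-4) stood at -0.52 without a call. Among 6 further genes of complex III and cytochrome c, 3 fell in the quadruple mutant, namely R07E4.3 at -1.03, T02H6.11 at -0.93 and F57B10.14 at -0.74 according to the authors' deposited table, and cyc-2.2 rose. The 12 genes for subunits that the mitochondrial genome encodes were looked up by name, and 0 were found among the listed genes, so they have no values here.

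Of 8 further ATP synthase genes 6 fell in the quadruple mutant, 3 in the double and 1 in mir-58. Among all listed genes 9.82%, 5.86% and 5.79% fell in the same order. One stood apart in size, as Y82E9BR.3, which encodes the proton-carrying subunit c of the membrane ring, was at -2.06, -3.16 and -2.73 in mir-58, the double and the quadruple mutant according to the authors' deposited table (adjusted p = 2.71e-17, 1.24e-18 and 1.3e-14). Another subunit gene, F58F12.1, fell to -0.91 in the quadruple mutant (adjusted p = 0.00144) and F32D1.2 to -0.84 (adjusted p = 0.00373) according to the authors' deposited table. An ATPase inhibitor gene, mai-2, fell in both multiple mutants, at -0.75 in the double (adjusted p = 0.0187) and -0.99 in the quadruple one (adjusted p = 0.00161), while its paralogue mai-1 was uncalled at 0.07 in the quadruple mutant, according to the authors' deposited table. All 37 further nuclear genes for subunits, inhibitors and cytochrome c together had 27 lower and 1 higher call in the quadruple mutant, with a median of -0.80.

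Some genes whose products build or feed the chain fell as well. For the counts below, the shares of all listed genes called lower were 9.82% in the quadruple mutant, 5.86% in the double and 5.79% in mir-58. Of 12 listed assembly factor genes 6 fell in the quadruple mutant (median -0.735), among them the copper chaperone gene cox-17, listed as F40G9.2, at -1.17 according to the authors' deposited table (adjusted p = 0.00113). The other complex IV assembly genes named by adjusted p, sco-1 (C01F1.2), cox-11 (JC8.5) and cox-14 (T20G5.14), fell to -0.92, -0.95 and -0.74 there, according to the authors' deposited table. Of 8 ubiquinone synthesis genes 3 fell there (median -0.32), namely coq-8 at -1.01, coq-5 at -0.95 and coq-1 at -0.67 according to the authors' deposited table, whereas the hydroxylase gene clk-1 stood at 0.45 without a call. Of 21 genes of the TCA cycle and pyruvate dehydrogenase 14 fell (median -0.81), 3 in the double mutant (-0.42) and 1 in mir-58 (-0.15). The gene with the smallest adjusted p in this list, sucl-2 (F23H11.3), a succinyl-CoA ligase gene, was called lower in all 3 mutants, at -0.83, -0.66 and -0.99 according to the authors' deposited table (adjusted p = 7.45e-05, 0.0282 and 5.81e-04). It was followed in the quadruple mutant by the isocitrate dehydrogenase genes idhg-2 (C30F12.7) at -1.06, idh-2 (C34F6.8) at -0.98 and idhb-1 (C37E2.1) at -0.95 according to the authors' deposited table. The other isocitrate dehydrogenase genes, chosen after their values were seen, were idh-1 (F59B8.2), called at -0.72, and idha-1 (F43G9.1) and idhg-1 (F35G12.2), uncalled at -0.64 and -0.18, according to the authors' deposited table. Of 6 carrier genes, misc-1 and F01G4.6 fell to -0.95 and -0.71 in the quadruple mutant and ant-1.3 rose, while ant-1.1 was called lower in mir-58 at -0.85 (adjusted p = 0.0114) and stood at -0.71 in the quadruple mutant without a call (adjusted p = 0.0783), according to the authors' deposited table.

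The mitochondrial stress response list, which in C. elegans includes chaperone genes induced when the chain is disturbed, had 3 of 11 genes lower and 2 higher in the quadruple mutant, with a median of -0.04. Among all listed genes 9.82% were called lower and 14.2% higher in that mutant. The chaperone gene hsp-60 fell to -1.31 in the quadruple mutant according to the authors' deposited table (adjusted p = 4.61e-05), with uncalled values of -0.14 for mir-58 and -0.64 for the double mutant. The import channel gene timm-23 (F15D3.7) fell to -0.65 (adjusted p = 0.0309) in the quadruple mutant according to the authors' deposited table. The third gene called lower there was the chaperone gene hsp-6, at -0.77 (adjusted p = 0.0411) according to the authors' deposited table. The peptide exporter gene haf-1 rose to 1.01 (adjusted p = 0.0199) and the histone methyltransferase gene met-2 to 0.90 (adjusted p = 0.00231) in the quadruple mutant according to the authors' deposited table.

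Most markers of muscle and intestine were also lower in the quadruple mutant. Of all listed genes 9.82% were called lower in the quadruple mutant, 5.86% in the double and 5.79% in mir-58. Called higher were 14.2%, 10.5% and 1.65% in the same order. Of 12 body wall muscle markers 9 fell in the quadruple mutant (median -1.015), 4 in the double (-0.58) and 3 in mir-58, where 1 rose (-0.235). The authors' deposited table puts the troponin genes tnt-2 at -1.77 and tni-1 at -1.31 in the quadruple mutant. Of 10 intestinal markers 6 fell and 1 rose in the quadruple mutant (median -0.895), with the same counts in the double mutant (-0.795) and 1 lower in mir-58 (-0.025). The acid phosphatase gene pho-1 and the exchanger gene nhx-2 were at -2.14 and -1.16 in the quadruple mutant, according to the authors' deposited table. The intestinal gene cpr-1 rose to 1.51 there (adjusted p = 0.00167) according to the authors' deposited table. Uncalled there were the intestinal genes elt-2 (-0.07) and ges-1 (0.07) and the muscle genes unc-22 (-0.13) and unc-89 (0.06), among others. Of 10 nervous system markers 2 rose and none fell in the quadruple mutant (median 0.315), where 14.2% of all listed genes rose. The 2 were unc-13 at 0.64 and unc-104 at 0.69 according to the authors' deposited table. In mir-58 2 rose as well (median 0.41), and in the double mutant none was called (median 0.22). No summed level of a marker list can be given without values per sample, and the part of these tissues in the fall of the respiratory chain genes was not tested.

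**Figure D4:**
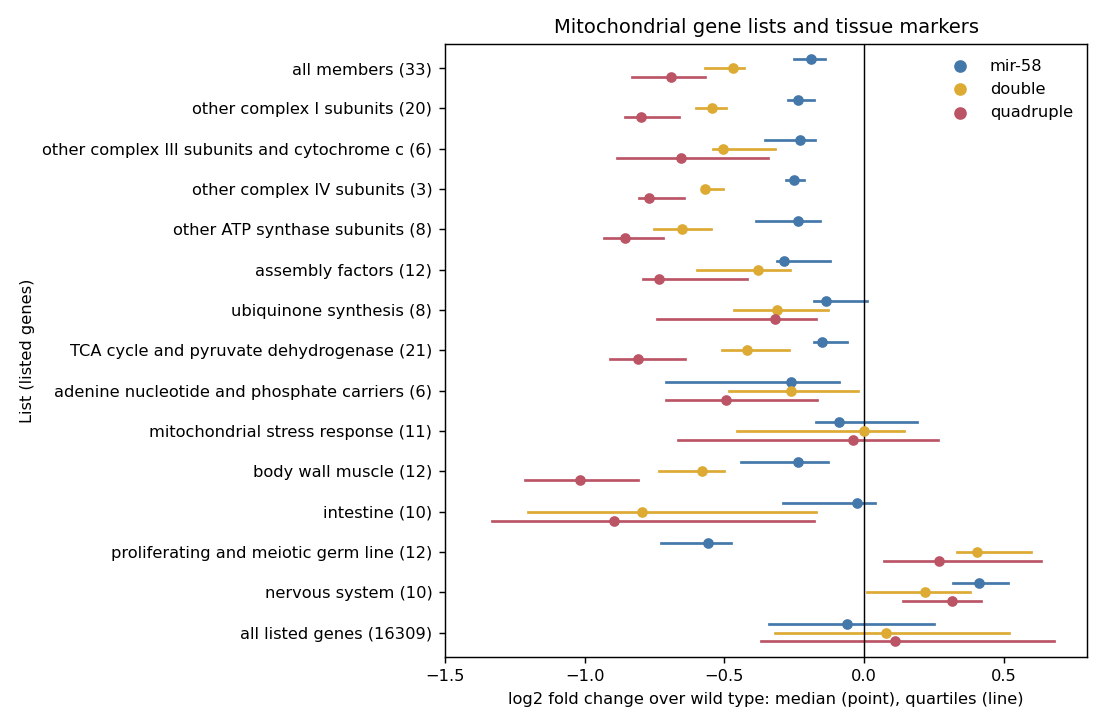
Median (point) and quartiles (line) of the log2 fold change over wild type (x axis) for each list (y axis, with its number of listed genes), coloured by mutant; sperm markers, at -3.63, 3.46 and 3.32, are outside the range and left out. The members and the other subunit, assembly factor, TCA cycle and muscle lists lie left of 0 in the quadruple mutant, and germ line and nervous system lists right of it.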

How the data were processed

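RNA sequencing of whole animals was used, with groups taken from the sample titles. Log2 fold changes and adjusted p-values of 3 comparisons with wild type were taken from the authors' deposited table, per the file headers. The submitters' processing notes name DESeq and give no version. How reads were aligned, counted and annotated, and how p-values were adjusted, is not given in the sources used here. Whether replicates came from separate cultures is not stated, and the p-values may thus reflect technical variation only.

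Members were matched to the listed names without regard to case. The RefSeq table and Ensembl release 115, both of WBcel235, served for sequence names and chromosomes (15513 of 16309 names). A call is an adjusted p under 0.05, with all 16309 genes as background. No test was run on a list. Counting was tested on simulated data. Members, lists and paralogue pairs were chosen with earlier results of these data known. All members and all paralogues are named. So are up to 4 genes per further list (2 for markers), by the smallest adjusted p in the quadruple mutant. Chosen after their values were seen were mai-1, 3 isocitrate dehydrogenase genes, hsp-6, cpr-1, elt-2, ges-1, unc-22 and unc-89. Percentages of wild type are 2 to the power of the log2 fold change. Sequences were not used here. Python 3.11.15, pandas 2.3.3, numpy 2.4.6 and matplotlib 3.10.9 were used.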

Additional observations from a re-analysis of the deposited data

How the results depend on the processing

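Counts of members called lower depended on the threshold. At an adjusted p under 0.01 the count was 8 in the quadruple and 1 in the double mutant, and under 0.1 it was 8 in the double mutant. A minimum change of 1.5-fold moved no count by over 1.5 times. Without the genes of the paralogue pairs, 20 members remain. Of these, 12 were lower in the quadruple, 3 lower and 0 higher in the double mutant and 1 lower in mir-58. Fewer genes were counted, and those left out included ucr-2.3 and asg-1, called lower in mir-58, and sdha-2, called higher in the double mutant. Without the X-linked members, chosen after seeing the data, 3 were lower in the double mutant. Centred on the median of all listed genes, the members' median in the quadruple mutant was -0.80. The medians of all 3 mutants kept their sign and moved by at most 0.1 under the other alternatives. In all, 54 combinations of result and setting stayed within these limits, those just described included. Among them were counts of 0 that stayed at 0. No paired analysis was possible because the values are comparisons and not values per sample, and for the same reason leaving out replicates, other normalisations and other filters were not run. Depth is unknown, so a missing call cannot be told from a lack of reads.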
